A study of Mus musculus with 8 samples.

Results

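Cd79a, Cd79b, Ms4a1, Cd22, Pax5, Cr2, Bank1, Spib and Pou2af1 are 9 genes known for their work in B cells, and they are described here in sorted T cells. They were chosen by name, and every non-control probe of the array that carried one of these names was taken. This gave 15 probes of the 41174 on the array, and 9 of its 27962 gene names.

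RNA was taken from mouse CD4+ T cells sorted into 4 populations, with 2 samples of each and 1 Agilent single-colour array per sample. The labels call the populations naive, CD44lo, CD44hi and Treg, the last being regulatory T cells. All cells came from male C57BL/6 mice aged 15 weeks, and spleen was pooled with lymph nodes. By the title of the series the mice were Ox40-cre/ROSA-YFP, a model where the Ox40 gene (Tnfrsf4) drives a Cre that switches on YFP, so that YFP also marks cells with earlier Ox40 activity. The labels give neither the gates of the sort nor the YFP status of a group. The titles number the 2 samples of each group m1 and m2, and the labels do not say whether these came from different animals. The spread behind the p-values is therefore that of these samples and could be technical only.

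The B cell antigen receptor is a surface immunoglobulin held together with CD79A and CD79B, whose cytoplasmic tails start the signal when antigen binds. CR2 (CD21) lowers the threshold for that signal, CD22 damps it, BANK1 is a scaffold below it, and CD20, made from Ms4a1, is a membrane protein long used to mark B cells. PAX5 keeps B cells committed to their lineage, SPIB is an ETS factor of B cells and plasmacytoid dendritic cells, and the Pou2af1 product OCA-B is a coactivator that docks on octamer-binding factors and is also known in CD4 T cells. T cells signal through CD3 instead, and most of the B cell programme is held silent in them.

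For Cd22, Cd79a and Pax5, 4 probes are shown 5′ to 3′ as deposited, with no part in capitals. The Pax5 probe among them was not well above background on any array. The Pax5 differences given below came from another probe, A_52_P429826, which is not printed. The Cd22 probe A_51_P448140 lies at chr7:27806351-27806410 on the minus strand of mm7, the build of the array files, and A_52_P466268 is split over chr7:27815904-27817228 on the same strand. The Cd79a probe is split over chr7:21688822-21689079 on the plus strand, and the Pax5 probe A_51_P122855 over chr4:44551296-44583850 on the minus strand. A 60-base probe that spans more of the genome than its own length crosses a splice junction, as the last 3 do.
Cd22 A_51_P448140: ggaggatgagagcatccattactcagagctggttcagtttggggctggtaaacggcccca
Cd22 A_52_P466268: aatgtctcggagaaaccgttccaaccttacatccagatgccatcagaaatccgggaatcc
Cd79a A_52_P651316: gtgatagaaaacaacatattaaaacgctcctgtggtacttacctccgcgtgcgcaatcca
Pax5 A_51_P122855: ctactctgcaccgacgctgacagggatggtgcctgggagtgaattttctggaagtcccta

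The motif TGCAAAT belongs to the octamer element on which the partners of OCA-B bind, and it was searched, with its reverse complement ATTTGCA for the other strand, in the 250 bases before the start of each gene, from RefSeq on GRCm38.p6. It was found in 3.56% of 32851 promoters and in 2 of the 7 member promoters in that table, those of Pou2af1 and Spib. The longer ATGCAAAT, which contains it, was found in 1.6% of promoters and in 0 of these 7. The ETS-type motif GGAAGTG, searched on both strands as well, was found in 8.55% of promoters and in those of Bank1 and Cd79a. The promoters with TGCAAAT are shown because their genes differed in the arrays: Pou2af1 was bright and lower in Treg, while Spib was dim and had no called difference. Capitals mark the motif in chr9:51213440-51213689 (plus strand) for Pou2af1 and chr7:44532072-44532321 (minus strand) for Spib. A match is a description of the letters only.
Pou2af1 promoter: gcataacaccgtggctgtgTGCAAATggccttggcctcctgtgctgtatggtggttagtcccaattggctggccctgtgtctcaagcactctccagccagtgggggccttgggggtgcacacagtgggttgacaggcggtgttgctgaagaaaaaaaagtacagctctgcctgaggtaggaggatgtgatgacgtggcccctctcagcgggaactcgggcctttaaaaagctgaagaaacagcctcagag
Spib promoter: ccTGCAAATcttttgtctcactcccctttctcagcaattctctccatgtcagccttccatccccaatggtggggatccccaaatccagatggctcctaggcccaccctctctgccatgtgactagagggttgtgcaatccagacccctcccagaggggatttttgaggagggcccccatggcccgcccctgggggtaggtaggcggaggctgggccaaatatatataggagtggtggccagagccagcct

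Signals are the processed signal of the image software, background-subtracted and detrended within the array, and are given in the order of replicates 1 and 2 of naive, CD44lo, CD44hi and Treg. A probe counts as well above background where the software flagged it so, and the lowest such signal was between 8.88 and 17.4, depending on the array. Differences are on the log2 scale after each array's signals were divided by their 75th percentile, with the standard error of the limma fit over 8 arrays. They are called at an adjusted p under 0.05 over the 27162 probes that at least 1 group had well above background on both its arrays. Where a group was not well above background, "at least" gives the fold over the lowest measurable signal of its arrays, or over the probe's own signal where that was higher.

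The arrays held T cell RNA: 11 of 11 T cell genes, among them the CD3 chains, were well above background on all 8 arrays. The sort showed in Cd44, with signals of 4334 and 3639 in naive, 7401 and 8859 in CD44lo, 27300 and 24930 in CD44hi, and 13430 and 13880 in Treg. Foxp3, the defining factor of regulatory T cells, had 23.3 and 24.9 in naive, 1329 and 1902 in CD44lo, 1020 and 1113 in CD44hi, and 7971 and 8547 in Treg. So the groups labelled CD44lo and CD44hi held Foxp3 RNA at a level between those of naive and Treg. Naive array 2 had the lowest 75th percentile (639, against 991 to 1337 on the other arrays), and the naive pair had the largest spread between replicates (SD of the log2 difference over probes 0.692, against 0.358 to 0.469).

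Of the 15 member probes, 11 passed the filter on dim probes and 4 did not, against 66% passed among all probes, and each of the 9 genes had at least 1 probe that passed. Only 4 of the 15 probes were well above background on all 8 arrays, and 5 of the 11 passed with neither naive array well above background, so that a difference from naive was built into their passing. Cd79b and Cd22 were higher in all 3 other populations than in naive. Ms4a1 was higher in CD44hi and Treg, Bank1 in Treg, and Pou2af1 was lower in Treg than in every other population. The brighter of the 2 probes named Pax5 was higher in CD44hi than in naive and Treg, and Cd79a, Cr2 and Spib gave no called difference.

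In CD44lo against naive, 3 of the 11 probes tested were called higher, where 4.12% of all tested probes were (4.69% in either direction), and the median difference was 0.28 for these probes and -0.07 for all. In CD44hi against naive, 5 were called higher, where 12.6% of all were (25.5% in either direction), with medians of 1.43 and -0.11. In Treg against naive, 5 were called higher and 1 lower, where 10.6% and 8.52% of all were (19.2% together). The medians there were 1.32 and -0.15. Cd22 and Ms4a1 each enter these medians through both of their probes. With every gene read on its brightest probe, the Treg median of the 9 genes turned to -0.36, against -0.20 for all genes. Read that way, CD44lo gave 0.28 against -0.13, and CD44hi 0.99 against -0.15. The higher calls of Cd22, Ms4a1 and Pax5 in these comparisons came from probes that passed the filter with neither naive array well above background. Only those of Cd79b and Bank1 did not, so the counts beside the shares are descriptions and no test of the members. The 3 comparisons share the naive arrays, and the direction of the calls over all probes moved with the processing of the signals. CD44hi against naive gave 3421 probes higher and 3503 lower, but 2494 and 4903 after a background correction that adds an offset (normexp), and Treg against naive gave 2887 and 2315, but 2088 and 4110 after normexp. CD44lo against naive gave 1119 and 154, but 899 and 338 in the values of the authors' deposited table. Without naive array 1, the 3 comparisons called 10913, 13741 and 13493 probes in all, and 3, 4 and 7 member probes.

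Between the other populations, CD44hi exceeded CD44lo on 2 member probes, where 5.14% of all tested probes were called higher (7.92% in either direction). Treg exceeded CD44lo on 2 and was below it on 1, where 3.24% and 1.46% of all were (4.69% together). Treg was above CD44hi on 1 and below it on 4, where 3.69% and 3.55% of all were (7.24% together).

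**Figure D1:**
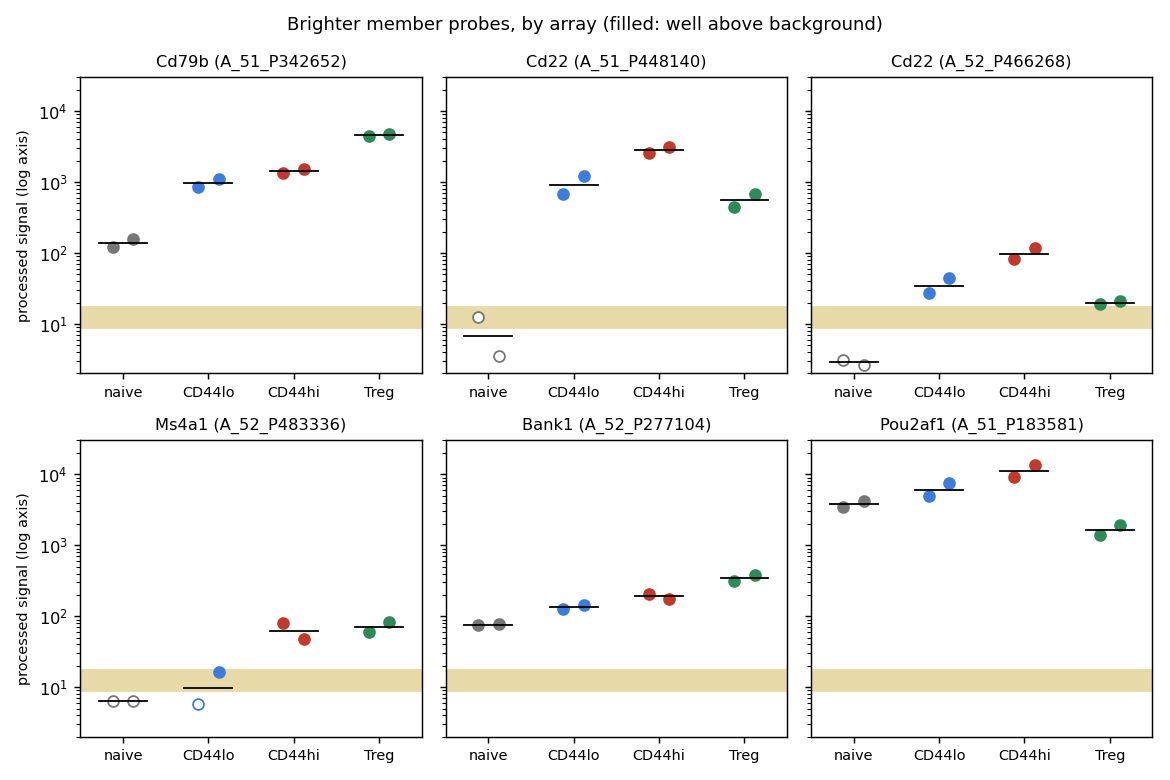
Processed signal (log axis, arbitrary fluorescence units) of the 6 brighter member probes on each of the 8 arrays, with filled points well above background, bars at the mean of each group's log signals and the shaded band spanning the lowest measurable signal of the 8 arrays. Cd79b climbs from 121 and 159 in naive to 4448 and 4719 in Treg, Cd22 peaks in CD44hi, and Pou2af1 is lowest in Treg.

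The signalling chains of the receptor differed from each other. The Cd79b probe A_51_P342652, at chr11:106420507-106420566 on the minus strand of mm7, was well above background on all 8 arrays. Its signals were 121 and 159 in naive, 845 and 1109 in CD44lo, 1354 and 1522 in CD44hi, and 4448 and 4719 in Treg. No groups overlapped, and the order was naive, CD44lo, CD44hi, Treg, although CD44hi and CD44lo did not differ by a called amount (0.38 ± 0.34, limma adjusted p = 0.57).

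Cd79b was 5.27-fold higher in CD44lo than in naive (log2 2.40 ± 0.34, adjusted p = 0.00956 in limma), 6.88-fold higher in CD44hi (2.78, adjusted p = 0.00172) and 21.1-fold higher in Treg (4.40, adjusted p = 3.1e-04). Bulk samples cannot tell a few cells with much Cd79b RNA from many cells with little, here or for the genes that follow. The arrays lay on 2 slides with 1 array of each group on each, and the difference of Treg from naive was 3.94 on slide 1 and 4.86 on slide 2. Treg also exceeded CD44lo 4.00-fold (adjusted p = 0.0249 in limma) and CD44hi 3.07-fold (adjusted p = 0.0375). Both of these calls were lost when any 1 array of CD44lo or of Treg was left out, with adjusted p up to 0.18 against CD44lo and 0.2 against CD44hi, or when dim probes were kept (0.0767 and 0.0988). The first was also lost without CD44hi array 1 (0.0517), the second without CD44hi array 1 or 2 (0.106 and 0.128), and CD44lo against naive was lost without CD44lo array 2 (0.081).

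Cd79a, which encodes the partner without which CD79B does not reach the B cell surface, stayed near the background. Its probe gave 14.9 and 13.0 in naive, 18.4 and 14.4 in CD44lo, 14.8 and 17.5 in CD44hi, and 13.5 and 15.4 in Treg. The groups overlapped and 6 of the 8 arrays were well above background. The largest of its 6 differences was -0.59 ± 0.22 in Treg against naive (adjusted p = 0.106 in limma), a difference of the scaled values that the raw signals hardly show. It was called without naive array 1 (-0.81, adjusted p = 0.0301), and CD44hi against naive was called after quantile normalization (-1.10, adjusted p = 0.0497).

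Among the molecules that tune the receptor, Cd22 gave the largest differences. The probe A_51_P448140 had signals of 12.7 and 3.49 in naive, neither well above background. It had 673 and 1210 in CD44lo, 2544 and 3074 in CD44hi, and 449 and 672 in Treg, all well above background. CD44hi was the highest and naive the lowest, while the higher Treg array and the lower CD44lo array nearly met (672 and 673).

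Cd22 on this probe was at least 56.0-fold higher in CD44lo than in naive (log2 6.68 ± 0.45, limma adjusted p = 4.7e-04). It was at least 153-fold higher in CD44hi (8.12, adjusted p = 8.5e-05) and at least 28.8-fold higher in Treg (5.72, adjusted p = 3.5e-04). These 3 calls held under every alternative that gave a value for the probe, although after normexp they shrank to 3.44, 4.87 and 2.63. Within slides, the difference of CD44hi from naive was 8.59 on slide 1 and 7.66 on slide 2. Treg was 5.30-fold lower than CD44hi (-2.41, adjusted p = 0.026 in limma), a call lost when any 1 array of Treg or CD44hi was left out (adjusted p = 0.0511 to 0.165) or dim probes were kept (0.0714). CD44hi against CD44lo (1.45, adjusted p = 0.118) and Treg against CD44lo (-0.96, adjusted p = 0.361) were not called in limma.

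The junction-crossing Cd22 probe A_52_P466268 was dimmer and followed the same order of groups. Its signals were 3.10 and 2.63 in naive, 27.1 and 43.7 in CD44lo, 81.0 and 117 in CD44hi, and 18.8 and 21.2 in Treg, and only naive was not well above background. Over the 8 arrays its Pearson correlation with the first probe was 0.954, as a description of these arrays. It was at least 2.13-fold, at least 5.31-fold and at least 1.05-fold higher in CD44lo, CD44hi and Treg than in naive (adjusted p = 0.00161, 1.6e-04 and 0.00347 in limma). After normexp the call was lost in CD44lo (0.22) and the sign turned in Treg (-0.14, adjusted p = 0.663), and the values of the authors' deposited table gave 0.42 in Treg (adjusted p = 0.0964).

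On this second probe Treg was 5.08-fold lower than CD44hi (-2.34 ± 0.29, adjusted p = 0.006 in limma), lost without Treg array 1 (0.0507) or 2 (0.0595). CD44hi was 2.49-fold higher than CD44lo (1.32, adjusted p = 0.0447), a call that lay close to the threshold. It was lost on leaving out each array except CD44hi array 1, with adjusted p up to 0.28 without CD44lo array 1, and under 6 of the 8 other alternatives. Both Cd22 probes thus put Treg below CD44hi and naive at the background.

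Cr2 and Ms4a1, the genes of CD21 and CD20, were dim. The Cr2 probe A_52_P490788, at chr1:194717651-194717710 of mm7, was well above background on all 8 arrays, with signals between 22.0 and 30.5. The groups overlapped except that both naive arrays (22.0 and 22.9) lay below the rest, while after scaling the mean of naive was the highest. No difference was called, the largest being -0.36 ± 0.29 in Treg against naive (adjusted p = 0.402 in limma). The other Cr2 probe, A_51_P208525, was well above background on 0 of 8 arrays, with signals of 3.24 to 14.8.

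Ms4a1 was higher in CD44hi and Treg on 1 of its 2 probes. A_52_P483336 had 6.32 and 6.37 in naive, not well above background, and 5.78 and 16.2 in CD44lo, of which only the second was. It had 80.0 and 47.3 in CD44hi and 60.3 and 82.1 in Treg, so these populations overlapped each other and lay above the other 4 arrays.

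On that probe Ms4a1 was at least 3.36-fold higher in CD44hi than in naive (log2 2.69 ± 0.51, adjusted p = 0.0108 in limma) and at least 3.69-fold higher in Treg (2.82, adjusted p = 0.0108). It was 5.59-fold higher in CD44hi than in CD44lo (adjusted p = 0.0344) and 6.14-fold higher in Treg than in CD44lo (adjusted p = 0.0392). After normexp these 4 differences were 0.38, 0.45, 0.69 and 0.76 and none was called. Treg against naive was also lost without Treg array 1 (0.0522) or 2 (0.0867). The 2 differences from CD44lo were lost on leaving out each array except CD44lo array 2, with adjusted p up to 0.134 for CD44hi (without CD44lo array 1) and 0.25 for Treg (without Treg array 2), and under 4 of the 9 other alternatives.

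The second Ms4a1 probe, A_51_P277683, had 7.68 and 9.33 in naive, 12.5 and 11.5 in CD44lo, 22.7 and 52.2 in CD44hi, and 33.1 and 33.0 in Treg. CD44hi and Treg again lay above the other 4 arrays. No difference was called (CD44hi against naive 1.43, adjusted p = 0.059; Treg against naive 1.32, adjusted p = 0.0878, both in limma). CD44hi against naive was called without CD44hi array 1 (2.05, adjusted p = 0.0178), and Treg against naive without CD44hi array 2 (adjusted p = 0.0455). After normexp the signs turned, to -0.06 and -0.17.

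Plasma cell genes, like Ms4a1, were higher in CD44hi and Treg than in naive. Of 6 tested, 6 were called higher than in naive in CD44hi and 6 in Treg, and 1 in CD44lo (Prdm1, the gene of Blimp-1, 2.44-fold), where 12.6%, 10.6% and 4.12% of all probes were. Xbp1 (1238 and 674.3) and Prdm1 (267.3 and 190.5) were the brightest of the list in naive, so the counts need not mark plasma cells alone. Jchain, which links polymeric immunoglobulin, had 109 and 106 in naive, 205 and 187 in CD44lo, 10560 and 3729 in CD44hi, and 7694 and 3414 in Treg. It was 38.7-fold higher in CD44hi and 30.4-fold higher in Treg than in naive (adjusted p = 0.0013 and 0.00214 in limma). Mzb1, a chaperone of immunoglobulin-secreting cells, was 7.71-fold and 5.70-fold higher, and Sdc1, the plasma cell marker CD138, at least 5.21-fold and at least 2.43-fold higher. The summed level of the 7 genes, in units of the array's 75th percentile, was 1.59 to 1.67 in naive, 2.44 to 2.53 in CD44lo, 6.24 to 12.1 in CD44hi and 6.31 to 10.4 in Treg. The part of plasma cells in the Ms4a1 result was not tested.

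Bank1, the scaffold, was read by 1 of its 3 probes. A_52_P277104, at chr3:135848247-135848306 of mm7, was well above background on all 8 arrays, with 75.7 and 77.1 in naive, 127 and 144 in CD44lo, 205 and 178 in CD44hi, and 313 and 376 in Treg. The groups did not overlap and stood in the same order as for Cd79b. Treg was 2.86-fold higher than naive (log2 1.52 ± 0.23, adjusted p = 0.00594 in limma), a call lost without Treg array 2 (0.0565). Within slides this difference was 1.15 on slide 1 and 1.88 on slide 2.

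The remaining Bank1 differences were smaller. CD44hi against naive was 0.73 (adjusted p = 0.0641 in limma) and was called without naive array 2 (1.06, adjusted p = 0.0089), while Treg against CD44lo was 1.098 (adjusted p = 0.0547) and was called without naive array 1 (0.0156) or 2 (0.0159) and in the values of the authors' deposited table (0.0331). Treg against CD44hi was 0.79 (adjusted p = 0.116) and was called without naive array 1 (0.019) or 2 (0.0193). The probes A_51_P492165, which spans a 109828-base stretch of the gene, and A_52_P303769, which was designed on a separate cDNA, were well above background on 0 of 8 arrays.

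**Figure D2:**
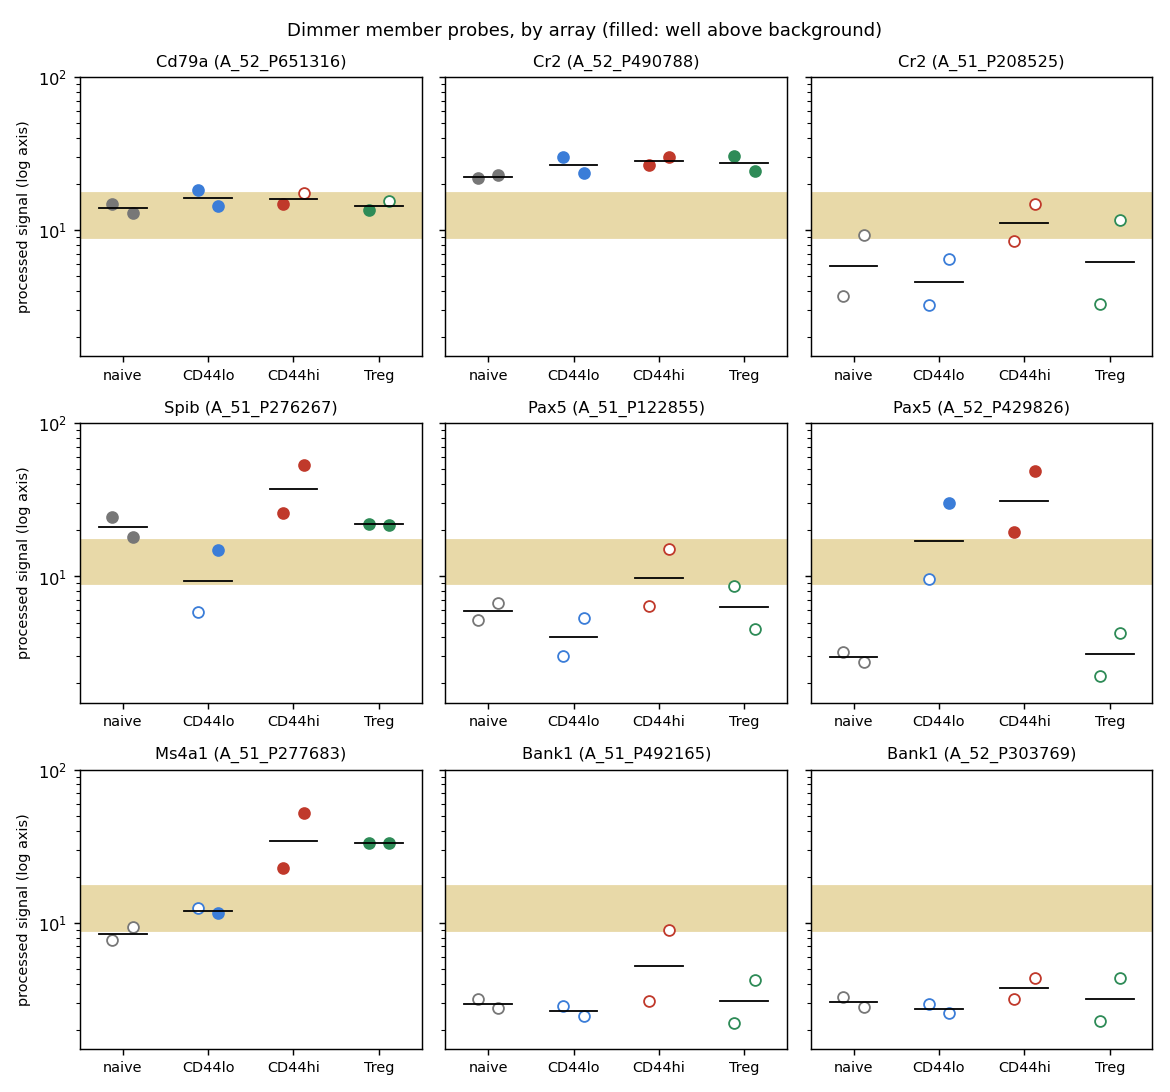
Processed signal (log axis, arbitrary fluorescence units) of the 9 dimmer member probes on each of the 8 arrays, drawn as for the brighter ones, with open points not well above background. Cd79a lies between 13.0 and 18.4 and Cr2 A_52_P490788 between 22.0 and 30.5 in every group, and Pax5 A_52_P429826 is well above background on 1 CD44lo and both CD44hi arrays.

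Of the transcription factors, Pax5 was not measurable on the probe designed from its RefSeq transcript. A_51_P122855 was well above background on 0 of 8 arrays, with signals of 3.04 to 15.0. A second probe that carries the Pax5 name, A_52_P429826 at chr4:44538878-44538937 of mm7, was designed from a separate cDNA whose place in the Pax5 transcript was not established here. It had 3.21 and 2.76 in naive, 9.64 and 30.2 in CD44lo, 19.6 and 49.1 in CD44hi, and 2.23 and 4.28 in Treg. Only the second CD44lo array and both CD44hi arrays were well above background.

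That second probe passed the filter only through the CD44hi arrays, so a difference of CD44hi from naive and from Treg was built into its passing. On it CD44hi was at least 1.69-fold higher than naive (log2 2.79 ± 0.64, adjusted p = 0.022 in limma) and at least 2.60-fold higher than Treg (Treg minus CD44hi -3.39, adjusted p = 0.0274). After normexp the differences were 0.14 and -0.66 and neither was called. The first was lost without naive array 1 (0.0668), naive array 2 (0.0689) or CD44hi array 2 (0.112), or when dim probes were kept (0.0557). The second was lost without either naive array, CD44hi array 2 or either Treg array, with adjusted p between 0.0502 and 0.173, and under 4 of the 9 other alternatives.

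Spib was dim and uneven between replicates. Its probe had 24.3 and 18.2 in naive, 5.88 and 14.9 in CD44lo, 26.1 and 53.8 in CD44hi, and 22.0 and 21.7 in Treg, and only CD44lo array 1 was not well above background. CD44lo lay below the other groups and CD44hi above them, although CD44hi overlapped naive after scaling. No difference was called, the largest being CD44hi against CD44lo (1.82 ± 0.49, adjusted p = 0.0832 in limma), which was called without CD44lo array 2 (2.47, adjusted p = 0.0479) or CD44hi array 1 (2.35, adjusted p = 0.0456).

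Pou2af1 was the member that went the other way in Treg. Its probe A_51_P183581, at chr9:51218585-51218644 on the plus strand of mm7, was well above background on all 8 arrays, with 3421 and 4175 in naive, 4899 and 7527 in CD44lo, 9286 and 13712 in CD44hi, and 1384 and 1954 in Treg. The signals of the groups did not overlap, with Treg lowest and CD44hi highest, although naive overlapped CD44lo after scaling. Treg was 3.60-fold lower than naive (log2 -1.85 ± 0.38, adjusted p = 0.0174 in limma), 4.37-fold lower than CD44lo (-2.13, adjusted p = 0.0292) and 7.14-fold lower than CD44hi (-2.84, adjusted p = 0.00743). Within slides the difference of Treg from CD44hi was -2.69 and -2.98, and that from naive -2.46 and -1.24.

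These 3 calls rested on few arrays. Treg against naive was lost without naive array 2 (0.0632), Treg array 1 (0.0944) or Treg array 2 (0.0842), and Treg against CD44hi without Treg array 1 (0.0658) or 2 (0.0553). Treg against CD44lo was lost without either array of CD44lo or of Treg (adjusted p = 0.111 to 0.155), with the slide as a block (0.0552) and when dim probes were kept (0.0866). CD44lo and naive, neighbours in the order, differed by 0.28 ± 0.38 (adjusted p = 0.67 in limma). CD44hi was 1.98-fold higher than naive (0.99, adjusted p = 0.101 in limma), which was called after quantile normalization (1.17, adjusted p = 0.0446), after normexp (1.01, adjusted p = 0.0406), in the values of the authors' deposited table (1.15, adjusted p = 0.0195) and without naive array 2 (1.45, adjusted p = 0.0464).

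**Figure D3:**
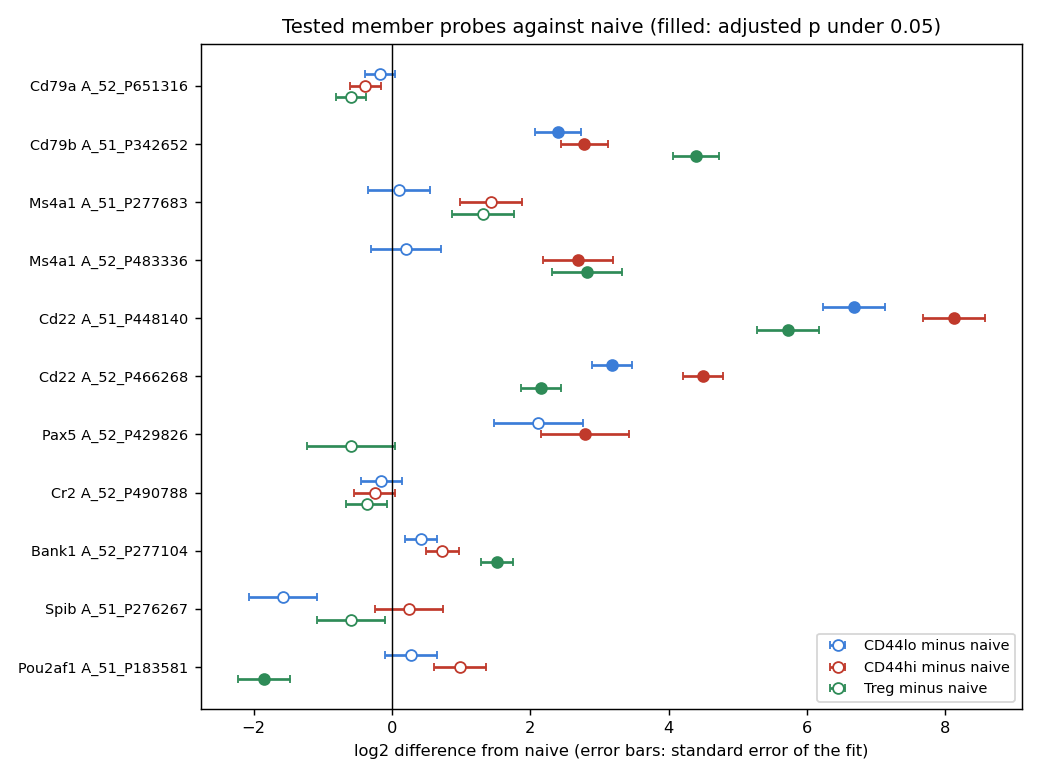
Log2 difference from naive (horizontal axis) of the 11 member probes that passed the filter, for CD44lo, CD44hi and Treg, with the standard error of the limma fit as bars and filled points at an adjusted p under 0.05. Cd22 A_51_P448140 reaches 8.12 in CD44hi, Cd79b 4.40 in Treg, and Pou2af1 is the 1 probe called below 0, at -1.85 in Treg.

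The members did not share 1 pattern. Over the 8 arrays Cd79b correlated with Bank1 (Pearson r = 0.939), whose groups stood in the same order, and with Pou2af1 at -0.43. Ms4a1 on A_52_P483336 correlated with Bank1 at 0.834 and with Cd79a at -0.79. These are descriptions over 8 arrays in 4 groups, and the arrays share their scaling.

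Outside the members, the probes whose values ran closest to each member were taken among the 5811 or 5812 tested probes of other named genes whose group means spanned at least 1 on the log2 scale. For Cd79b they were Ldlrad4 (r = 0.998), Tnfrsf4 (0.998) and Msl3l2 (0.996), and 223 probes were above 0.95. Tnfrsf4 is Ox40 itself, and its signals were 1603 and 1751 in naive, 6923 and 10560 in CD44lo, 10590 and 12540 in CD44hi, and 28900 and 30720 in Treg. For Cd22 they were Rnf43, Trpc1 and B4galnt4 on the brighter probe (0.993 to 0.995) and Slc6a8, Metrnl and Sostdc1 on the other (0.996). For Bank1 they were Fnip2, Bmpr2 and Slamf1 (0.981 to 0.984).

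For Pou2af1 the closest probes were those of Sgsh (0.992), Rnf19a (0.99) and Nanos1 (0.981), with 15 probes above 0.95. For Ms4a1 on A_52_P483336 they were Olfm1 (0.986), Derl3 (0.972) and Carmil1 (0.971), and Derl3, a factor of protein disposal from the endoplasmic reticulum, is 1 of the plasma cell genes. For Pax5 on A_52_P429826 they were Anxa3, Cdk5r1 and Padi4 (0.977 to 0.985).

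A wider set of B cell genes was read beside the members. Of 38 further B cell genes, each read on its brightest probe, 32 were tested, 30 were well above background on all 8 arrays and 3 on none. Those 3 were Ebf1, a founding factor of the B lineage, Fcer2a (CD23) and Fcrla, with signals up to 5.34, 13.0 and 13.8. The summed level of the 38 genes, in units of the array's 75th percentile, was 52.0 to 62.5 in naive, 56.6 to 61.2 in CD44lo, 54.4 to 56.5 in CD44hi and 83.6 to 83.8 in Treg. Bright genes weigh most in this sum. Cd83 had signals of 231 and 337 in naive and 22300 and 25010 in Treg, and Cd81 4444 and 4955, then 21160 and 27800. Ptpn6 had 26320 and 19380 in naive and 18070 and 18540 in Treg.

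Against naive, 4 of the 32 were called higher and 3 lower in CD44lo, where 4.12% and 0.567% of all tested probes were. In CD44hi the counts were 11 and 4 (12.6% and 12.9% of all), and in Treg 13 and 3 (10.6% and 8.52% of all). The highest of these genes were Cd83, a membrane protein of activated lymphocytes, Cd38, an ectoenzyme, and Fcrl1, an Fc receptor-like protein of B cells. Cd83 was 18.1-fold higher in CD44lo, 18.6-fold in CD44hi and 54.0-fold in Treg. Cd38 was 11.5-fold, 22.2-fold and 23.0-fold higher, and Fcrl1 5.54-fold, 11.6-fold and 7.52-fold higher.

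The genes called lower were Ly86 (5.39-fold), Ciita (3.07-fold), the class II transactivator, and Plcg2 (2.01-fold) in CD44lo. In CD44hi the 3 largest were Cd72 (4.52-fold), an inhibitory receptor, H2-Ob (3.19-fold) and Ciita (2.23-fold), and in Treg they were Bcl11a (2.07-fold), Ptpn6 (1.94-fold), the phosphatase that CD22 recruits, and Ralgps2 (1.78-fold). Several genes of this list are also known in T cells, so the list does not mark B cells alone.

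Markers of other cells were read beside the members. Of 13 myeloid and dendritic cell markers, 1 was called higher and 1 lower in CD44lo, 2 and 2 in CD44hi, and 2 and 3 in Treg. Of all tested probes, 4.12% were called higher and 0.567% lower in CD44lo, 12.6% and 12.9% in CD44hi, and 10.6% and 8.52% in Treg. Cybb, an NADPH oxidase subunit that B cells also carry, was at least 52.8-fold higher in CD44hi and at least 51.5-fold higher in Treg than in naive. Lyz2, the lysozyme gene of myeloid cells, had 75.03 and 96.68 in naive, 161 and 172 in CD44lo, 946 and 703 in CD44hi, and 595 and 416 in Treg, and was 6.36-fold and 3.73-fold higher in CD44hi and Treg than in naive. Itgax (CD11c) was 3.47-fold lower in CD44hi and 8.17-fold lower in Treg, and Fcgr3, an Fc receptor, 3.51-fold and 8.33-fold lower. Their summed level was 1.101 to 1.396 in naive, 1.21 to 1.43 in CD44lo, 2.22 to 2.37 in CD44hi and 1.64 to 1.99 in Treg. Of 6 plasmacytoid dendritic cell markers tested, 2 were called higher in Treg (Ccr9 3.65-fold, Tlr7 2.75-fold), 1 was called lower in CD44hi (Tlr7, 3.73-fold), and the summed level stayed between 12.6 and 14.8. That sum is mostly Bst2, with signals of 10150 and 6516 in naive and 12090 and 14140 in Treg, and says little of the dimmer markers. Siglech, also on that list, was well above background on only 2 arrays and was not tested. The part of such cells in the members' differences was not tested.

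**Figure D4:**
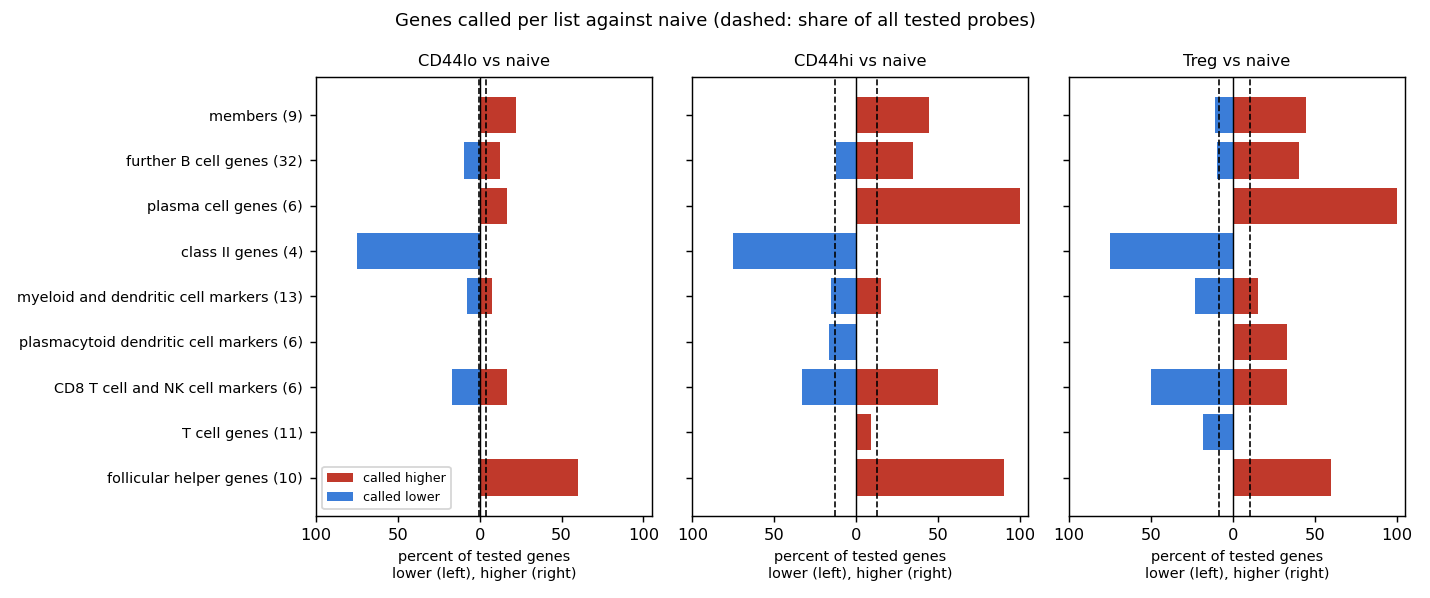
Percent of the tested genes of each list called higher (right) or lower (left) than in naive at an adjusted p under 0.05, in CD44lo, CD44hi and Treg, with the number tested in brackets and dashed lines at the percent of all 27162 tested probes. Each gene is read on its brightest probe, so the 9 members give 2, 4 and 4 genes called higher, and the plasma cell genes reach 6 of 6 in CD44hi and Treg.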

How the data were processed

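Feature Extraction 9.5.1.1 read the arrays, per the file headers. The authors deposited its output, in which each spot's signal is an intensity, not normalized from array to array. The deposited flags per spot (other values, per the file headers) mark controls, outliers, surrogate values and signals well above background. The authors' deposited table is on a log2 scale with column medians of 6.86 to 6.88 and no stated centring. The submitters' processing notes name limma and give no step; background correction and normalization of that table are not given in the sources used here.

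Control spots (1639 of 45018 per array) were left out and spots of a probe averaged. Outlier spots were left out too, unless every spot of the probe was flagged, so a probe with a single spot kept it. Processed signals were divided by their array's 75th percentile over probes and their log2 was fitted with limma 3.58.1 in R 4.3.3 over 8 arrays in 4 groups, without a block, for 6 comparisons, with Benjamini-Hochberg adjustment over 27162 probes and a threshold of 0.05. An exact permutation test of 2 arrays against 2 cannot go below 0.333, so none was used. Array number limits the precision, and dim spots carry surrogate signals. Alternatives were normalization, background correction (normexp, offset 50), the authors' table, filters, blocks, an intensity trend, the brightest probe per gene, only the groups compared, and each array left out. Steps were tested on simulated data.

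Names followed the array's own gene names. Symbols of other lists were updated through accession (22951 probes), symbol (6659) or older symbol (3109), and 8455 probes kept the file's name. The genes named from the further lists were drawn from the larger called differences, at most 3 in each direction per comparison. Not every list and comparison has such genes named, and a larger difference can be left unnamed. Values of other genes were chosen after they were seen: Cd44, Foxp3, Tnfrsf4, Ebf1, Fcer2a, Fcrla, Bst2, Siglech, Xbp1 and the naive signals of Prdm1. The members and lists were chosen with earlier results of these data known. 1 gene of the further B cell list is not reported here by name.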

Additional observations from a re-analysis of the deposited data

How the results depend on the processing

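Counts of called member probes moved most between populations other than naive. With the brightest probe per gene, an intensity trend, quantile normalization, the slide as a block or normexp, CD44hi against CD44lo called 1 member probe in place of 2. The brightest-probe setting leaves out Cd22 A_52_P466268, 1 of those 2, so its call could not be made there. Without the filter on dim probes CD44hi against CD44lo called 0 and Treg against CD44lo 0, where limma had called 2 and 3, and Treg against CD44hi 2. That filter setting gave 813, 4344, 3149, 1146, 413 and 1032 called probes in the 6 comparisons, in the order CD44lo, CD44hi and Treg against naive, CD44hi and Treg against CD44lo, and Treg against CD44hi. Normexp gave 786 for CD44lo against naive. Fits of only the 2 groups compared gave 845, 3603 and 3275 against naive and 1978 for Treg against CD44lo, and 0 member probes for CD44hi against CD44lo. Keeping only probes well above background on all 8 arrays gave 728 for CD44lo against naive and 1, 1, 3, 0 and 2 member probes (against naive, then CD44hi against CD44lo and Treg against CD44hi). Leaving out 1 array gave 729 to 10913, 3451 to 13741, 2223 to 13493, 571 to 3669, 185 to 2022 and 600 to 3505 called probes, and 2 to 3, 4 to 6, 3 to 7, 0 to 3, 0 to 3 and 0 to 5 member probes, the highest count of probes being without naive array 1 in each comparison. Among member differences called under at least 1 setting, the signs that turned did so with normexp: Ms4a1 A_51_P277683 in CD44hi (-0.05549) and Treg (-0.17) and Cd22 A_52_P466268 in Treg (-0.14), against naive. The median of all probes moved by more than 0.1 in 4 comparisons when dim probes were kept and in 2 with normexp; in Treg against naive it went from -0.15 to -0.30 and -0.25. The cause of these moves was not tested, except that fewer arrays or probes entered where one was left out. Of 66 member differences, 24 were called, 15 only under another of the 18 settings and 27 under none, of which 15 changed sign under some setting.

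The deviations of same-numbered arrays correlated positively in every pair of groups (0.0114 to 0.344), most weakly between naive and Treg. By slide the correlations ran from -0.274 to 0.344. With 2 arrays in a group these are the same values up to their sign, so they are no second check. The numbers come from the sample titles, and the labels do not say that they pair the samples. The main fit therefore used no block, and whether the samples were paired was not settled. With the replicate number as a block, Treg against CD44lo called 5 member probes in place of 3. Under that block Cd22 A_52_P466268 (adjusted p = 0.0484) and Pax5 A_52_P429826 (0.00998) in Treg against CD44lo, Pax5 A_52_P429826 in CD44lo (0.0192), Ms4a1 A_51_P277683 (0.0498) and Pou2af1 (0.0146) in CD44hi against naive, and Spib in CD44hi against CD44lo (0.0454) were called by limma.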

Other observations

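Of 4 class II genes, which B cells and other antigen-presenting cells express, 3 were called lower than in naive in CD44lo, 3 in CD44hi and 3 in Treg by limma. The shares of all tested probes called lower were 0.567%, 12.9% and 8.52%. The fourth gene, Cd74, which encodes the invariant chain, was called in none of these 3 comparisons. It had signals of 912 and 1047 in naive, 619 and 989 in CD44lo, 1155 and 1260 in CD44hi, and 2771 and 3537 in Treg. H2-Aa, which encodes the alpha chain of the I-A molecule, was 13.4-fold lower in CD44lo, 4.01-fold lower in CD44hi and 4.34-fold lower in Treg. H2-Ab1, for its partner chain, had signals of 969 and 1453 in naive, 120 and 151 in CD44lo, 591 and 538 in CD44hi, and 455 and 485 in Treg, so no other population overlapped naive. With Cd74 in it, the summed level of the 4 genes, in units of the array's 75th percentile, was 2.42 to 4.99 in naive, 0.79 to 1.17 in CD44lo, 1.66 to 1.74 in CD44hi and 2.97 to 3.20 in Treg, which lies inside the naive range.

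Genes of follicular helper T cells, the CD4 cells that help B cells in follicles, were higher than in naive, 6 of 10 in CD44lo, 9 of 10 in CD44hi and 6 of 10 in Treg. In CD44hi the largest differences were at least 117-fold for Il21, 53.4-fold for Il4 and 35.7-fold for Cxcr5, the receptor that draws cells into follicles. Of the markers of CD8 T cells and NK cells, 6 were tested, and 1 was called higher and 1 lower in CD44lo, 3 and 2 in CD44hi, and 2 and 3 in Treg. Of the T cell genes, 1 was called higher in CD44hi (Zap70, 1.55-fold) and 2 lower in Treg (Lat 2.00-fold, Cd247 1.55-fold). Beside these lists, 4.12% of all tested probes were called higher than in naive and 0.567% lower in CD44lo. The shares were 12.6% and 12.9% in CD44hi, and 10.6% and 8.52% in Treg.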
